A study of Rattus norvegicus with 16 samples.

Results

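The dorsal root ganglion (DRG) holds the cell bodies of the sensory neurons of the body wall and limbs among glia, vessels and immune cells. Of the 21021 genes measured in it, 10 were followed as a gauge of how much of the RNA came from neurons, namely the neurofilament genes and genes used as general markers of neurons. They were chosen by their symbols, as Nefl (Entrez gene 83613), Nefm (24588), Nefh (24587), Ina (24503), Prph (24688), Pvalb (25269), Tubb3 (246118), Stmn2 (84510), Uchl1 (29545) and Snap25 (25012), and each symbol was listed for 1 gene. All 10 reached 1 FPKM (fragments counted per kilobase of a transcript and corrected for library size) in every sample, so none was lost to the filter on low values.

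The study asked how gene expression in the DRG changes as bone cancer pain develops. Adult female Sprague-Dawley rats received Walker 256 mammary carcinoma cells in the left tibia (tumor cell implantation, TCI), and the L3 to L5 ganglia of the implanted side of 1 rat formed 1 sample. There were 4 samples each from TCI day 1, day 7, day 14 and sham rats, which makes 16 samples in 4 groups. The sham rats had an injection into the same bone, of buffered saline by the sample labels and of boiled tumor cells by the study's methods. The labels place the sham samples at day 14, so that TCI days 1 and 7 differed from sham in treatment and in time since surgery, which cannot be told apart. Walker 256 is a transplantable rat tumor, and the tissue sequenced was whole ganglion, not sorted neurons. In the study's text 1 sample of day 1 (number 2) and 1 of day 7 (number 3) were set aside. Results below rest on the 14 others unless all 16 are named.

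Neurofilaments are the intermediate filaments of neurons and fill the axon of large myelinated fibers. Nefl encodes the light, Nefm the medium and Nefh the heavy chain, and Ina encodes alpha-internexin and Prph peripherin, which can join the same filaments. Peripherin is typical of peripheral neurons and is prominent in small-diameter sensory cells, while Nefh and the calcium-binding protein parvalbumin (Pvalb) mark large sensory neurons, the muscle spindle afferents in particular. Tubb3 (class III beta-tubulin), Stmn2 (stathmin-2, a regulator of microtubules), Uchl1 (the ubiquitin hydrolase also called PGP9.5) and Snap25 (a SNARE protein of vesicle fusion) are used as general markers of neurons.

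Reference promoters were at hand for 5 of the 10 genes, and they are shown to give the sequence context of these members. Each is the 150 bases before the gene start in RefSeq (assembly GRCr8), read in the direction of the gene, and capitals mark matches on either strand to the GC box letters GGGCGG, the TATA box letters TATAAA or the box named after its letters CCAAT. They lie at chr1:255837979-255838128 on the plus strand for Ina, chr7:132097139-132097288 plus for Prph, chr7:111666290-111666439 minus for Pvalb, chr19:68365537-68365686 plus for Tubb3 and chr14:41849418-41849567 minus for Uchl1.
Ina: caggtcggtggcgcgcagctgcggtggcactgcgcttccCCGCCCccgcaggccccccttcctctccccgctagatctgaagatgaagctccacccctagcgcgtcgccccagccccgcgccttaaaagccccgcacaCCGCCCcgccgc
Prph: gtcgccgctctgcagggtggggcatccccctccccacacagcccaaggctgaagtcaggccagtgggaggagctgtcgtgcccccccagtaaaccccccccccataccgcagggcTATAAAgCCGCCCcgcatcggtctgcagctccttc
Pvalb: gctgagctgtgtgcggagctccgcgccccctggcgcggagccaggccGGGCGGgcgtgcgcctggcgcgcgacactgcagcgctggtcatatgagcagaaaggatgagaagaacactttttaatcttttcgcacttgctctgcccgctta
Tubb3: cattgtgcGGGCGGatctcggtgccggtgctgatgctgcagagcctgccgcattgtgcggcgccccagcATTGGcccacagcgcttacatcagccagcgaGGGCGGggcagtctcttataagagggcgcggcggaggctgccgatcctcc
Uchl1: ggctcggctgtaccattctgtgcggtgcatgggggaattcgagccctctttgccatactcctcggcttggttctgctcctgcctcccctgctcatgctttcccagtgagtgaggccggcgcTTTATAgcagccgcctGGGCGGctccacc

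Within the 250 bases before the start GGGCGG was found in 5 of these 5 promoters and in 30.5% of the 33469 promoters of the table, a description of the members with a promoter at hand and not a test. TATAAA was found in 2 of the 5 (Prph, on the strand of the gene, and Uchl1, on the other strand), against 12.9% of all. CCAAT was found in Tubb3 alone, against 34.0% of all, and the 3 motifs do not overlap in these sequences. Over the same 250 bases the GC content was 59.6% in Uchl1, 62.8% in Pvalb, 64.4% in Prph, 68.0% in Tubb3 and 70.8% in Ina, with a median of 51.2% over all promoters. These matches describe letters in a window and say nothing of which factors bind there.

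Neuronal RNA was abundant in all samples. All 20 genes of a separate list of neuronal genes (the neuronal reference, which holds none of the 10) were above 0 in each of the 16 samples. Left-out sample 3 of day 7 stood apart. A list of 18 skeletal muscle genes took 6.09% of its FPKM, against 0.00349 to 0.157% in the other 15 samples, and Acta1, the actin of skeletal muscle, was at 6693 FPKM. The highest of these 15 was sham sample 4, with 177 FPKM of Acta1 where the other 14 had 4.41 to 7.78. Left-out sample 2 of day 1 had the highest level of the Schwann cell myelin list, a mean log2(FPKM + 1) of 8.39 against 7.69 to 7.86 in the other day 1 samples. FPKM tables hold no read totals, so the depth behind the values is unknown.

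In sham ganglia the light neurofilament chain ranked 2 among all transcripts in each of the 4 samples. On the FPKM scale, which is per length and so can be compared between genes, the order of the means was Nefl (4552 ± 126, SD, n = 4), Nefm (3645 ± 196), Nefh (2330 ± 94.0), Uchl1 (2316 ± 53.5), Tubb3 (2105 ± 110), Prph (1446 ± 129), Stmn2 (1062 ± 47.0), Snap25 (728 ± 50.3), Pvalb (291 ± 8.51) and Ina (34.7 ± 1.41). Each neighbour in that order was separated from the next in all 4 samples without overlap, except Nefh and Uchl1, whose ranges overlapped. Among all genes Pvalb ranked between 163 and 197 in these samples and Ina between 2435 and 2700.

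**Figure D1:**
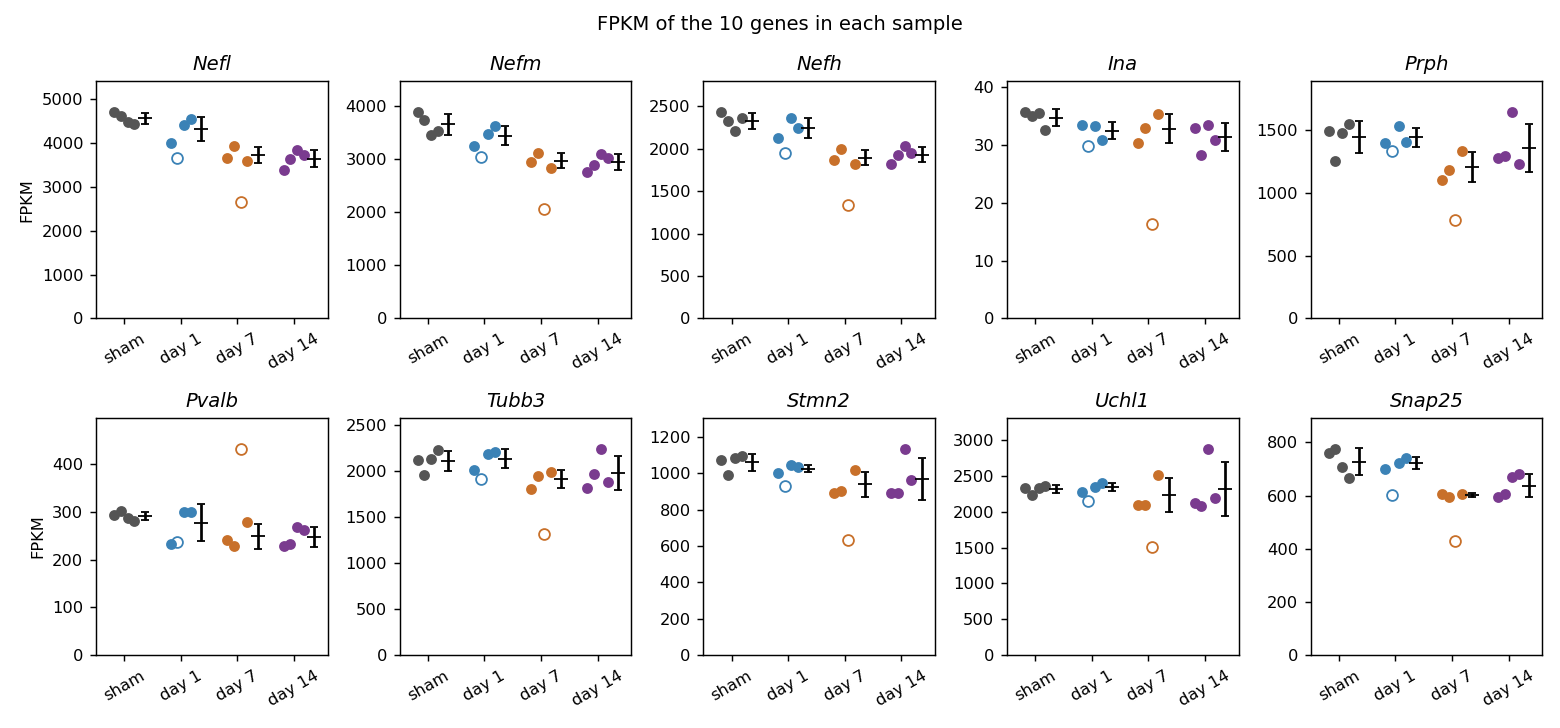
FPKM of each of the 10 genes (y axes, each from 0) in the 16 samples, by group (x axis). Filled points are the 14 samples kept by the study, open points the 2 left out, and black bars the mean ± SD of the kept samples. Nefl, Nefm and Nefh lie lower on days 7 and 14 than in sham with no overlap, while Uchl1 overlaps at every time.

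Across the 10 genes, 4 fell on day 7 and the same 4 fell on day 14, namely Nefl, Nefm, Nefh and Snap25, each by between 12.4 and 20.1%. The test was limma on log2(FPKM + 1) with all 4 groups in 1 fit and Benjamini-Hochberg adjustment over 14023 genes, and a gene was called at an adjusted p of at most 0.05. For comparison, 3.45% of all genes tested were called lower on day 7 and 3.21% on day 14, and 14.5% and 11.9% were called higher. None of the 10 was called higher on any day. At an unadjusted p under 0.05, 7 of the 10 were lower on day 7 and 6 on day 14, against 8.57% and 9.16% of all genes. On day 1 none of the 10 and 0% of all genes were called, and none of the 10 had an unadjusted p under 0.05 (limma), against 2.32% of all genes in the lower direction. The study's thresholds were an adjusted p at or below 0.001 and a log2 difference of 1 or more either way. Set on this limma fit, they called 0 of the 10 and 0% of all genes lower on days 7 and 14. The study itself used another test and reported genes lower than sham on both days. The calls of the triplet did not hold without the filter on low values. There, over 20571 genes, the fold changes were the same but the adjusted p of Nefl, Nefm and Nefh was 0.199, 0.138 and 0.0558 on day 7 and 0.129, 0.105 and 0.0703 on day 14 (limma), and of the 10 only Snap25 on day 7 was called (0.0223). The 3 comparisons with sham use the same 4 sham samples. In a bulk ganglion, fewer neurons, less RNA per neuron and more RNA from other cells cannot be told apart.

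Nefl, the light chain without which the filament does not assemble, had 4699, 4608, 4481 and 4419 FPKM in the sham samples. On day 1 it had 4004, 4397 and 4531 FPKM, on day 7 3654, 3926 and 3573 FPKM, and on day 14 3383, 3628, 3826 and 3720 FPKM. Every day 7 and day 14 sample was under every sham sample, and day 1 overlapped sham. The log2 fold change was -0.29 (SE 0.066, adjusted p = 0.00832 by limma) on day 7 and -0.32 (SE 0.061, adjusted p = 0.00444) on day 14, and -0.08 on day 1 with a 95% interval from -0.22 to 0.06.

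Nefm, the medium chain, had 3878, 3732, 3451 and 3518 FPKM in sham and 3238, 3460 and 3608 FPKM on day 1. It had 2947, 3112 and 2825 FPKM on day 7 and 2748, 2890, 3097 and 3019 FPKM on day 14. The groups again separated from sham on days 7 and 14 and not on day 1. Against sham its log2 fold change was -0.30 (SE 0.067) on day 7 and -0.31 (SE 0.063) on day 14, with adjusted p = 0.00822 and 0.00614 (limma).

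Nefh, the heavy chain, whose phosphorylated tail is characteristic of large myelinated axons, had 2431, 2320, 2207 and 2363 FPKM in sham. It had 2121, 2362 and 2240 FPKM on day 1, 1863, 1990 and 1821 FPKM on day 7 and 1823, 1918, 2034 and 1943 FPKM on day 14. Its values too were below sham without overlap on days 7 and 14. It had a log2 fold change of -0.30 (SE 0.060) on day 7 and -0.27 (SE 0.056) on day 14, with adjusted p = 0.00423 and 0.00679 (limma).

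The 3 chains kept nearly the same proportions in every sample, also in the 2 that the study left out. In the 14 samples Nefl made up 42.5 to 44.2% of the summed FPKM of the triplet, Nefm 33.9 to 35.2% and Nefh 21.6 to 23.1%. The FPKM ratio of Nefm to Nefl was 0.800 ± 0.023 in sham (SD, n = 4), 0.797 ± 0.011 on day 1 (n = 3), 0.797 ± 0.0087 on day 7 (n = 3) and 0.807 ± 0.0074 on day 14 (n = 4), with ranges that overlapped between sham and each day. For Nefh to Nefl the sham ratio of 0.512 ± 0.018 was followed by 0.520 ± 0.023 on day 1, by 0.509 ± 0.0016 on day 7 and then by 0.530 ± 0.0070. A total of 24 such comparisons were made, 6 ratios in 4 comparisons of groups, each by a two-sided exact permutation test whose smallest possible p is 0.0286. Nefh to Nefl was higher on day 14 than on day 7 in 4 of 4 samples by 0.06 on the log2 scale (exact permutation p = 0.0286, adjusted p = 0.343), and no ratio passed the correction.

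**Figure D2:**
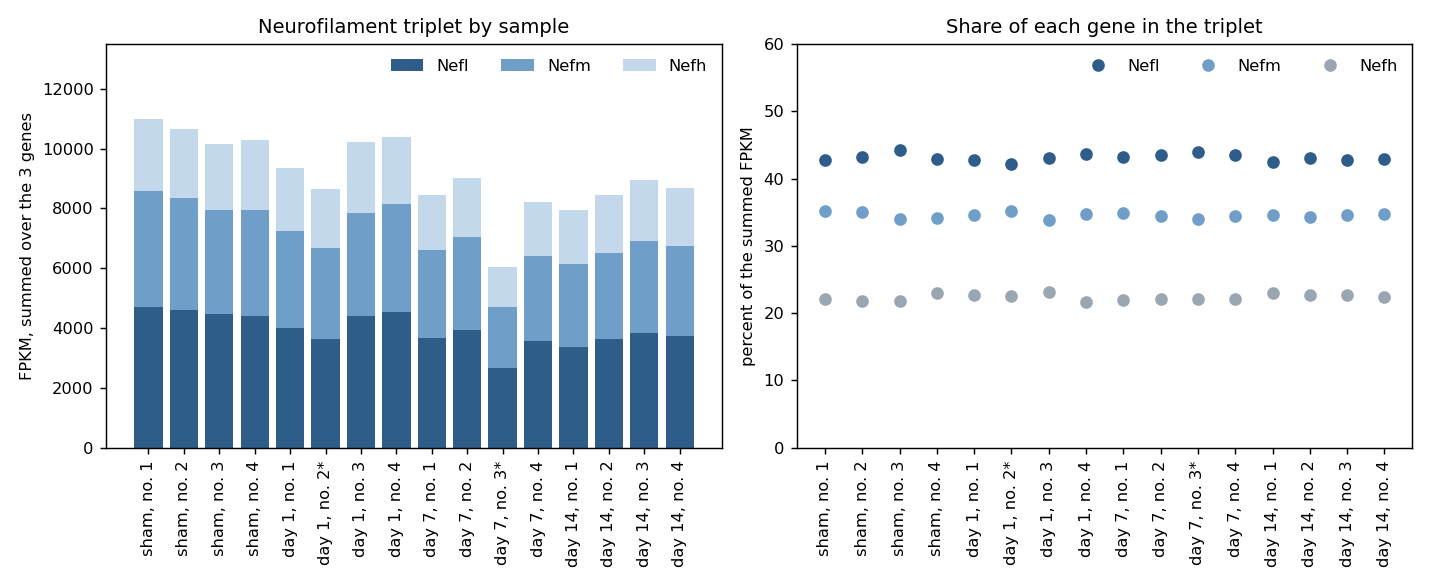
Left, the FPKM of Nefl, Nefm and Nefh stacked by sample (y axis from 0), with the samples on the x axis and an asterisk on the 2 left out by the study. Right, each gene as a percent of the summed FPKM of the 3. The stacks are shorter on days 7 and 14, while in the kept samples Nefl stays between 42.5 and 44.2% of the triplet.

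The other intermediate filament genes of neurons did not follow the triplet as closely. Ina had 35.7, 35.0, 35.5 and 32.6 FPKM in sham, 33.4, 33.2 and 30.8 FPKM on day 1, 30.3, 32.8 and 35.3 FPKM on day 7 and 32.9, 28.3, 33.5 and 30.8 FPKM on day 14. The groups overlapped at every time. Its log2 fold change was -0.08 on day 7, with a 95% interval from -0.22 to 0.06, and -0.14 on day 14, from -0.27 to -0.01 (adjusted p = 0.444 and 0.131, limma). Set against Nefl within each sample, Ina was higher on day 7 than in sham in 3 of 3 kept samples, by 0.21 on the log2 scale with no overlap (exact permutation p = 0.0286, adjusted p = 0.343). In left-out sample 3 of day 7 the FPKM ratio of Ina to Nefl went the other way, at 0.00611 against 0.00738 to 0.00792 in sham. On day 14 the difference of this ratio from sham was 0.18 on the log2 scale, with overlap (exact permutation p = 0.0571, adjusted p = 0.457).

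Prph had 1494, 1259, 1477 and 1553 FPKM in sham and 1399, 1534 and 1404 FPKM on day 1. It had 1101, 1188 and 1335 FPKM on day 7, where the highest sample passed the lowest sham sample, and 1279, 1295, 1647 and 1231 FPKM on day 14, where sample 3 exceeded all of sham. The log2 fold change on day 7 was -0.26, about as large as that of the triplet but with a wider interval, from -0.49 to -0.03 (SE 0.105, adjusted p = 0.111, limma). On day 14 it was -0.09, from -0.30 to 0.12. The ratio of Prph to Nefh, which sets a filament gene of small against one of large neurons, was 0.621 ± 0.057 in sham (SD, n = 4), 0.640 ± 0.080 on day 7 (n = 3) and 0.705 ± 0.075 on day 14 (n = 4), and its log2 differences from sham of 0.04 and 0.18 had exact permutation p = 0.743 and 0.114 (adjusted p = 0.914 and 0.686).

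Pvalb had 293, 302, 287 and 282 FPKM in sham, 233, 301 and 300 FPKM on day 1, 242, 228 and 279 FPKM on day 7 and 228, 232, 268 and 261 FPKM on day 14. The sham samples lay close together and above every kept sample of days 7 and 14. Its log2 fold change of -0.23 on day 7 (SE 0.095, adjusted p = 0.123, limma) and -0.24 on day 14 (SE 0.088, adjusted p = 0.0894) did not pass the test, with 95% intervals from -0.43 to -0.02 and from -0.42 to -0.05. Against Nefh its ratio moved by 0.08 on day 7 and 0.04 on day 14 on the log2 scale, with exact permutation p = 0.600 and 0.457 (adjusted p = 0.914 for both). Parvalbumin is also abundant in fast skeletal muscle. It was at 282 FPKM in sham sample 4, where muscle genes took 0.157% of the FPKM, and at 433 FPKM in day 7 sample 3, where they took 6.09%. The part of muscle RNA in the Pvalb values was not tested.

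Of the general neuronal markers, Tubb3 had 2114, 1958, 2126 and 2224 FPKM in sham and 2011, 2179 and 2198 FPKM on day 1. It had 1804, 1942 and 1985 FPKM on day 7 and 1817, 1959, 2238 and 1874 FPKM on day 14, and overlapped sham on both days. The log2 fold change was -0.14 on day 7 (95% interval from -0.30 to 0.02, adjusted p = 0.231, limma) and -0.10 on day 14 (from -0.25 to 0.05, adjusted p = 0.381). Stmn2, which is expressed strongly in growing and regrowing axons, had 1072, 993, 1084 and 1098 FPKM in sham, 1002, 1044 and 1032 FPKM on day 1, 894, 905 and 1020 FPKM on day 7 and 891, 893, 1135 and 963 FPKM on day 14. On day 7 and on day 14 alike 1 sample passed the lowest sham sample. Its log2 fold change was -0.18 on day 7 (from -0.35 to -0.0028, adjusted p = 0.154) and -0.14 on day 14 (from -0.30 to 0.03, adjusted p = 0.249).

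Uchl1 was not called on any day (limma). It had 2333, 2238, 2329 and 2361 FPKM in sham, 2280, 2345 and 2401 FPKM on day 1, 2096, 2099 and 2508 FPKM on day 7 and 2115, 2074, 2878 and 2192 FPKM on day 14. On days 7 and 14 alike 1 sample was above all of sham and the others below it. The log2 fold change was -0.06 on day 7 (95% interval from -0.28 to 0.17) and -0.01 on day 14 (from -0.22 to 0.19), and both became positive, 0.07 and 0.08, after quantile normalization. Neither interval reached the fold changes of the triplet on the same day, and the difference between the genes was not tested.

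Snap25, the SNARE protein of the plasma membrane, fell together with the triplet. It had 761, 776, 707 and 667 FPKM in sham, 699, 723 and 743 FPKM on day 1 and 605, 594 and 606 FPKM on day 7, with no overlap between day 7 and sham. On day 14 it had 595, 607, 668 and 681 FPKM, and the 2 highest samples passed the lowest sham sample. The log2 fold change was -0.27 on day 7 (SE 0.063, adjusted p = 0.00922, limma) and -0.19 on day 14 (SE 0.058, adjusted p = 0.0437). The day 14 call held in 3 of the 14 fits that left out 1 sample, with adjusted p from 0.0264 to 0.129, while the day 7 call and all calls of the triplet held in 14 of 14. The day 14 calls of the triplet were lost with all 16 samples (adjusted p from 0.0783 to 0.128, limma) and with day 7 sample 3 added (from 0.0758 to 0.130), and the day 7 call of Nefl with quantile normalization (0.0629).

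**Figure D3:**
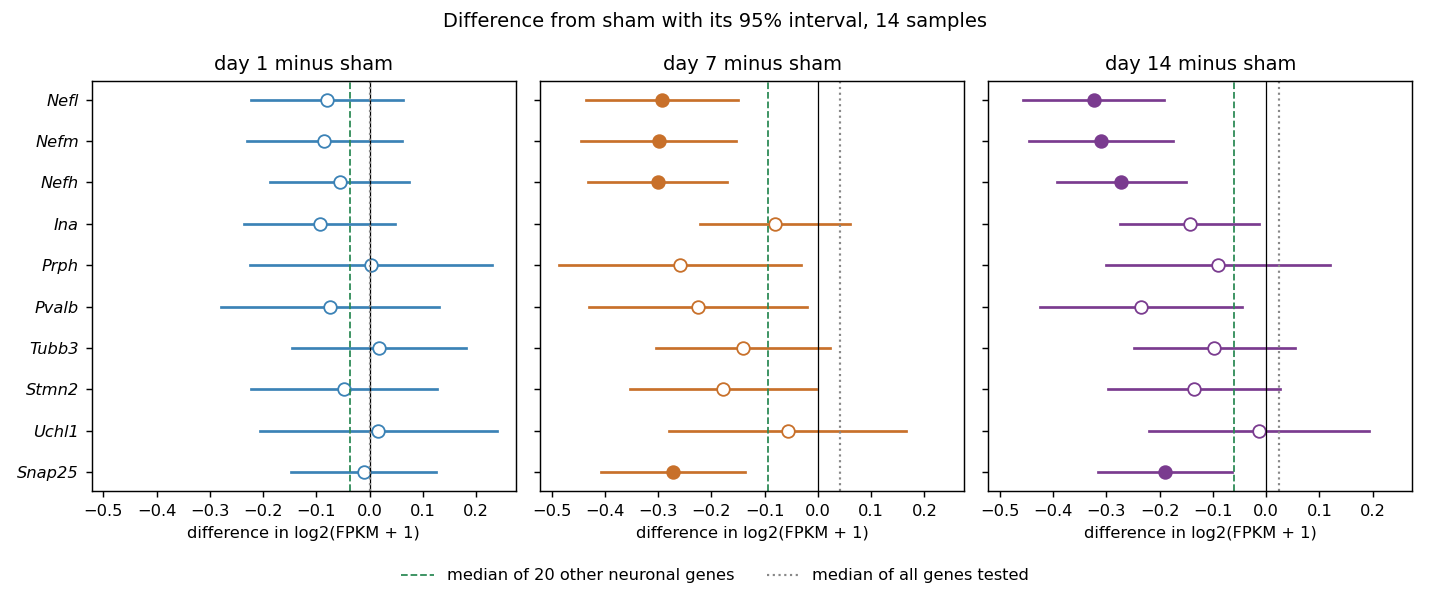
Log2 fold change against sham (x axis, in log2(FPKM + 1)) of each gene (y axis) on days 1, 7 and 14 in the limma fit of 14 samples. Lines are 95% intervals, and filled points have an adjusted p of at most 0.05. The dashed line is the median of the 20 neuronal reference genes and the dotted line that of all 14023 genes tested. On days 7 and 14 the triplet lies to the left of both medians, and on day 1 all intervals include 0.

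Counted over the 10 genes, 5 lay below sham without overlap on day 7 (Nefl, Nefm, Nefh, Pvalb and Snap25), against 10.1% of all genes tested, and 4 on day 14 (the same without Snap25), against 5.38%. On day 1 none did, against 5.73%. Their median log2 fold change went from -0.05 on day 1 to -0.24 on day 7, and stood at -0.17 on day 14, beside medians of 0.00, 0.04 and 0.03 over all genes tested. All 10 fold changes were below 0 on days 7 and 14, although Uchl1 turned positive on both days with quantile normalization and with centring on the neuronal reference, and Ina turned positive on day 7 with the latter, and Uchl1 on day 14 in 3 of the 14 fits that left out 1 sample. Between days 7 and 14 none of the 10 was called (limma), against 0.0998% of all genes, and none had an unadjusted p under 0.05, against 7.01% of all genes in the lower direction. Those differences ran from -0.06 for Ina to 0.17 for Prph, whose 95% interval was from -0.06 to 0.40.

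As a gauge of the neuronal share of the RNA, the 10 genes together took 4.36, 4.17, 4.13 and 4.20% of the summed FPKM in sham. They took 3.84, 4.08 and 4.12% on day 1, 3.37, 3.57 and 3.39% on day 7 and 3.38, 3.42, 3.81 and 3.53% on day 14. All kept samples of days 7 and 14 were under all kept samples of sham and day 1, with sample 3 of day 14 closest to them. The mean share was 4.21 ± 0.10% in sham (SD, n = 4), 4.01 ± 0.15% on day 1 (n = 3), 3.44 ± 0.11% on day 7 (n = 3) and 3.54 ± 0.19% on day 14 (n = 4). By their medians, the share on day 7 was 81.1% and on day 14 83.1% of that in sham, and leaving out any 1 gene of the 10 kept day 7 between 79.4 and 83.4%. The share is weighted by abundance, and the triplet alone made up 2.40 ± 0.095% of the FPKM in sham and 1.88 ± 0.13% on day 7.

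The neuronal reference gave a smaller gauge. Its 20 genes include the pan-neuronal splicing factor Rbfox3 and the synaptic vesicle proteins Syp and Syn1. Of the 20, 3 fell on day 7 and 2 on day 14, against 3.45% and 3.21% of all genes tested called lower. The median log2 fold change of the list was -0.09 and -0.06. Rbfox3 was among those that fell on day 7, with a log2 fold change of -0.24 (adjusted p = 0.0112, limma). The most abundant, Thy1 and Stmn3, had log2 fold changes of -0.07 and 0.00 on day 7 and were not called. When the log2 values of each sample were centred on this list, Nefl, Nefm and Nefh still lay below sham on day 7 by -0.18, -0.18 and -0.19 (adjusted p = 0.0233, 0.0214 and 0.00953, limma) and on day 14 by -0.26, -0.25 and -0.21 (adjusted p = 0.00371, 0.00553 and 0.00595). Snap25 was then not called on either day (adjusted p = 0.0507 and 0.118).

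Markers of large neurons and of small neurons can be set beside the filaments. Of 15 genes of large-fiber neurons, 4 fell on day 7 and 2 on day 14, against 3.45% and 3.21% of all genes tested called lower. The list had medians of -0.19 and -0.13. Cntnap2, a protein of the juxtaparanode, fell by 0.40 and Hapln4, a matrix link protein of perineuronal nets, fell by 0.33 on the log2 scale on day 7 (adjusted p = 0.00864 and 0.0273, limma). On day 14 the neurotrophin receptor Ntrk2 fell by 0.37 and Hapln4 fell by 0.30 (adjusted p = 0.0132 and 0.0353). Spp1, the most abundant of the list, was not called, at 530 ± 56.1 FPKM in sham (SD, n = 4) and 647 ± 52.1 FPKM on day 7 (n = 3). Of 15 genes of small-fiber neurons none fell on either day, against 3.45% and 3.21% of all genes tested called lower. On day 7, 1 of the 15, the transcription factor Runx1, rose by 0.21 (adjusted p = 0.0467, limma), against 14.5% of all genes called higher. Which cells of the whole ganglion the Runx1 rise and the Spp1 values came from was not tested. The medians of the small-fiber list were -0.03 on day 7 and -0.10 on day 14. Calca, the gene of the peptide CGRP, had 698 ± 59.8 FPKM in sham and 713 ± 59.8 FPKM on day 7. Whether the large-fiber and small-fiber lists differed from each other was not tested.

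Genes that work with the members in the cytoskeleton and at the synapse were lower in part. The share of all genes tested that was called lower was 3.45% on day 7 and 3.21% on day 14. Of 24 genes of the neuronal cytoskeleton and axonal transport, 6 fell on day 7 and 1 on day 14, with medians of -0.20 and -0.12. The microtubule-associated protein Map1b had 610 ± 19.3 FPKM in sham (SD, n = 4) and 461 ± 59.1 FPKM on day 7 (n = 3), a log2 fold change of -0.41 (adjusted p = 0.00331, limma). Cntn1, an axonal adhesion molecule, fell by 0.40 on day 7 and by 0.31 on day 14 on the log2 scale (adjusted p = 0.000843 and 0.00351). Of 16 SNARE and synaptic vesicle genes other than Snap25, 5 fell on day 7 and 2 on day 14, with medians of -0.18 and -0.14. The calcium sensor Syt2 had a log2 fold change of -0.43 and Sv2c one of -0.25 on day 7 (adjusted p = 0.0130 and 0.0358), and the clathrin adaptor Snap91 and the synapsin Syn2 had -0.17 and -0.19 on day 14 (adjusted p = 0.00864 and 0.0228).

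Within the members' own families the directions were mixed. Over all genes tested, 14.5% and 11.9% were called higher on days 7 and 14, and 3.45% and 3.21% lower. Of 8 other intermediate filament genes, 3 rose and 1 fell on day 7, and 2 rose and 1 fell on day 14. Vimentin (Vim), the filament of glia, fibroblasts and immune cells, went from 570 ± 20.7 FPKM in sham (SD, n = 4) to 807 ± 52.5 FPKM on day 7 (n = 3), a log2 fold change of 0.50 (adjusted p = 0.00133, limma), and Gfap, the glial filament, rose by 1.14 (adjusted p = 0.00704). Of 11 other tubulin genes, Tuba1a and Tubb2a fell on day 7 by 0.20 and 0.35 on the log2 scale and Tubb6 rose by 0.75 (adjusted p = 0.0289, 0.0211 and 0.0130), and none was called on day 14. Of 8 tested paralogs of Stmn2, Snap25 and Uchl1, only the widely expressed SNARE protein Snap23 was called. It was higher by 0.53 on day 7 and by 0.34 on day 14 (adjusted p = 0.00602 and 0.0479, limma). Of 10 tested genes known to rise in sensory neurons after axotomy, 1 was called higher on day 7 and 1 on day 14, against 14.5% and 11.9% of all genes, namely Jun on day 7 (0.28, adjusted p = 0.0245) and Gadd45a on day 14 (0.26, adjusted p = 0.0217).

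Genes of other cells moved at the same times, and their part in the lower neuronal values was not tested. Beside the counts that follow, 14.5% and 11.9% of all genes tested were called higher on days 7 and 14, and 3.45% and 3.21% lower. Of 15 macrophage genes, 15 rose on day 7 and 13 on day 14, and their summed level went from 72.7 to 136 FPKM in sham to 967 to 1303 FPKM on day 7 and 544 to 1885 FPKM on day 14, with no gene of the list at 0 in any sample. Of 12 listed T cell genes 10 were tested, and 10 rose on both days. The filter asked for 1 FPKM in any 3 samples. Genes near 0 in sham could thus pass it through days 7 and 14 alone, so this count is not independent of the filter. The list summed to 6.07 to 9.24 FPKM in sham, 43.9 to 102 FPKM on day 7 and 37.1 to 109 FPKM on day 14. In each sham sample 0 to 3 of its genes were at 0. Of 10 endothelial genes 3 rose on day 7 and none was called on day 14. The fibroblast list had 5 genes that rose and 1 that fell on day 7, with sums of 653 to 809 FPKM in sham and 1356 to 1505 FPKM on day 7, and 3 genes that rose and 1 that fell on day 14. Of 10 satellite glia genes, 1 fell and 1 rose on day 7 and 4 fell on day 14. The median log2 fold change of this list was -0.15 on day 7 and -0.25 on day 14, beside -0.24 and -0.17 for the 10 followed genes. Kcnj10, the glial potassium channel, had log2 fold changes of -0.75 and -0.97 (adjusted p = 0.0187 and 0.00417, limma). Of 11 Schwann cell myelin genes none was called on either day, with medians of -0.22 and -0.16. On day 1 none of these cell type genes was called either, against 0% of all genes. The Schwann cell myelin list then had a median of 0.34. Of its 11 genes, 7 had an unadjusted p under 0.05 (limma), against 734 of all 14023 genes tested in either direction.

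**Figure D4:**
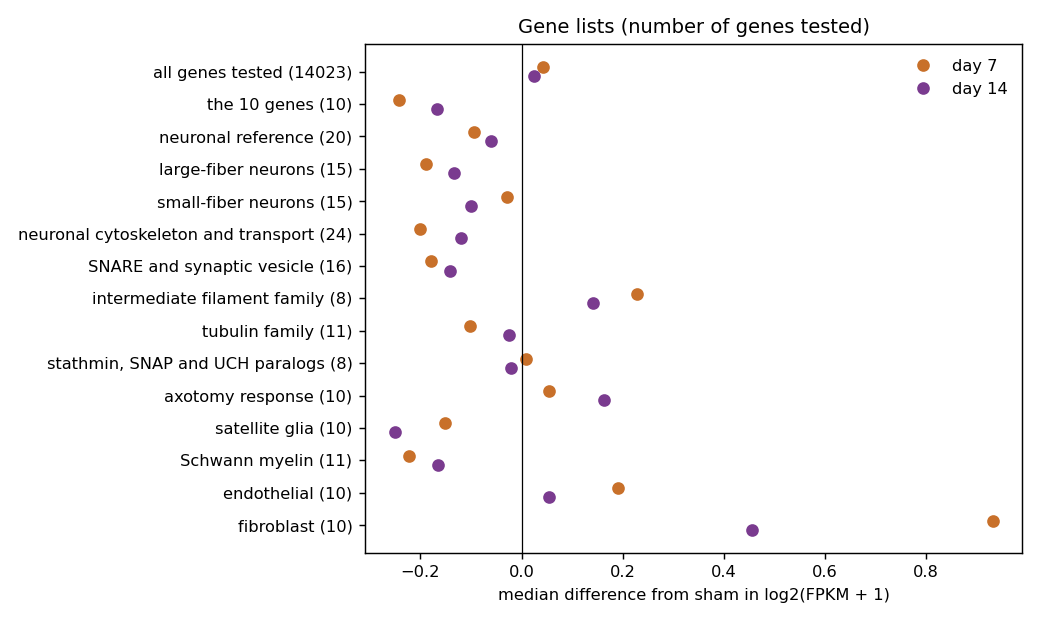
Median log2 fold change against sham (x axis, in log2(FPKM + 1)) of each gene list (y axis, with the number of genes tested) on days 7 and 14 in the 14 samples. The macrophage list (2.30 and 1.99), the T cell list (2.37 and 1.85) and the skeletal muscle list (-0.76 and -0.69, with sham sample 4 high) are not drawn. The 10 genes had medians of -0.24 and -0.17.

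Among themselves some members tracked each other more closely than others over the 14 samples. Likeness was measured as the SD, over samples, of the difference of 2 genes in log2(FPKM + 1), in which depth and base composition of a library are shared. Group means were not removed, so genes that shift alike between the groups also come out as alike. Of the 45 pairs the 3 smallest SDs were within the triplet, 0.025 for Nefl and Nefm, 0.042 for Nefm and Nefh and 0.044 for Nefl and Nefh. Next came Tubb3 and Stmn2 with 0.056, and Stmn2 and Uchl1 with 0.068. Snap25 was nearest to Nefm, with 0.071. The largest was 0.179 for Nefl and Uchl1. Day 14 sample 3 was the highest of its group in 9 of the 10 genes. Among the day 14 samples it had the lowest mean level of the macrophage list (3.36 against 3.74 to 4.89 in log2(FPKM + 1)). It had the highest of the neuronal reference (6.81 against 6.64 to 6.67), the small-fiber list (5.38 against 5.22 to 5.33) and the SNARE list (6.51 against 6.40 to 6.44). It had the lowest of the large-fiber list (4.42 against 4.51 to 4.58) and the neuronal cytoskeleton list (6.45 against 6.48 to 6.58). Whether these levels are linked was not tested.

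Outside the 10 genes, the closest profile by the same measure, among 9528 genes with a mean of at least 5 FPKM, was the same for 4 of them. Atp1b1, the beta subunit of the sodium pump, was nearest to Nefl (SD 0.063), Nefm (0.064), Nefh (0.055) and Snap25 (0.049), where the median over all candidates was 0.183 to 0.202. Acot7, an acyl-CoA thioesterase, was nearest to Tubb3 (0.038) and Stmn2 (0.037). Dync1i2, an intermediate chain of dynein, was nearest to Ina (0.045), the adhesion molecule Bcam to Prph (0.075), the lactate dehydrogenase subunit Ldhb to Pvalb (0.059) and the small GTPase Rab4a to Uchl1 (0.034).

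The 2 samples that the study left out had less of nearly all the members. In day 7 sample 3 the 9 genes other than Pvalb stood at 49.5 to 72.7% of the median of the other day 7 samples, from 16.2 FPKM for Ina to 2655 FPKM for Nefl. Pvalb stood at 179% of that median, with 433 FPKM, the highest value in any sample. The 10 genes took 2.35% of its FPKM, and 2.51% with the muscle list taken out of the total, against 3.37 to 3.57% in the other day 7 samples. In day 1 sample 2 all 10 stood below the median of the others, at 79.0% for Pvalb to 95.2% for Prph.

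**Figure D5:**
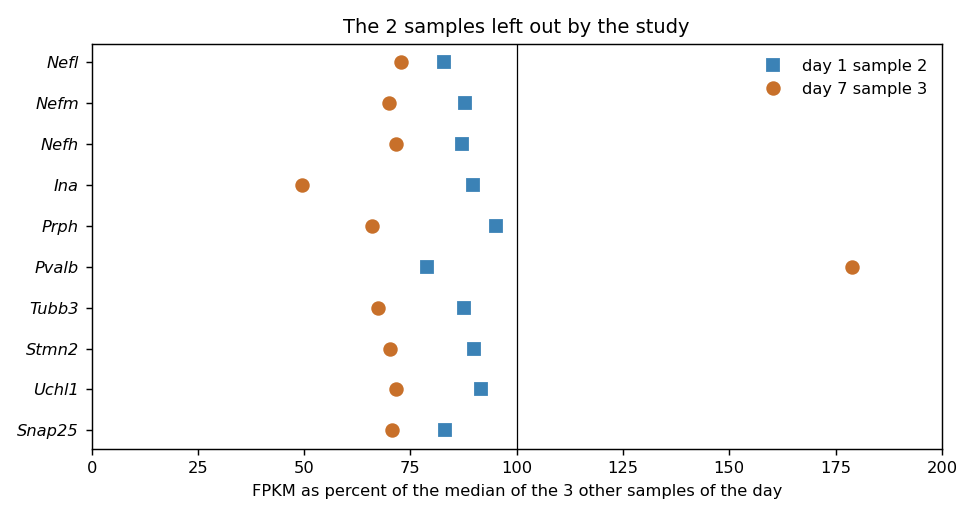
FPKM of each gene (y axis) in day 1 sample 2 and day 7 sample 3, as a percent of the median of the 3 other samples of the same day (x axis from 0). The line marks 100%. Pvalb in day 7 sample 3 is the only value above it, at 179%.

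With all 16 samples in the fit, 5 genes were called lower on day 7, the same 4 and Prph (log2 fold change -0.41, adjusted p = 0.0479, limma), against 4.76% of all genes. The triplet fold changes on day 7 were then -0.41 for Nefl, -0.43 for Nefm and -0.43 for Nefh. On day 14, whose own samples and fold changes were the same, none was called, against 1.00% of all genes, and the SE of Nefl was 0.109 in place of 0.061. The adjusted p on day 14 was then 0.0783 for Nefl, 0.0965 for Nefm, 0.128 for Nefh and 0.316 for Snap25. Adding only day 7 sample 3 gave 0 calls on day 14, and adding only day 1 sample 2 gave 3.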

How the data were processed

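RNA of 16 DRG samples (4 groups of 4, grouped by the sample labels) was sequenced. Per the study's methods, the authors used HISAT and Bowtie2 for mapping and RSEM for expression, and deposited FPKM with 2 decimals, 1 table per sample. CASAVA 1.4 and Bowtie2 are also named in the submitters' processing notes. The genome build and annotation are not given in the sources used here, and the labels and methods describe different sequencing platforms. FPKM hold no totals, so depth is unknown and no counting interval was computed. Length and library scaling are in the values, and no scaling between samples is described. FPKM are relative: a rise of other transcripts lowers the share of every gene.

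Fold changes are on the log2(FPKM + 1) scale of the deposited FPKM. The 14023 genes that reached 1 FPKM in 3 or more samples were tested with limma 3.58.1 in R 4.3.3 (intensity trend, 4 groups, no covariate) on the 14 samples kept by the study, with Benjamini-Hochberg adjustment. Ratios were tested by exact permutation in Python 3.11.15 with numpy 2.4.6 and pandas 2.3.3, and figures drawn with matplotlib 3.10.9. Both tests were also tried on simulated data. P-values measure the spread between rats of a group, 1 rat per sample. No 2 tables shared more than 2.78% of identical values above 0.

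All 10 members are named. From each other list the 2 most abundant genes and the 2 with the largest called change on day 7 and on day 14 could be named, and for each member the gene with the nearest profile. Rbfox3, Syp and Syn1 were named outside this rule, after their values were seen. The members and lists were chosen with earlier results of these data known. Of the list genes, Ocm and Trac were not used here. Some genes that the rule names are not reported here. Names and neighbours came from a RefSeq table (GRCr8), which held the 10 members. Alternatives covered the sample set, filter, pseudocount, scaling, trend, weights, block and each sample left out, and 2 sample sets were added after seeing the data.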

Additional observations from a re-analysis of the deposited data

Results flagged for a closer look

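In groups of 4 samples, the gap of the highest or lowest sample to its neighbour was compared with the range of the group (Dixon's criterion at 95%). Of 44 groups (10 genes and their summed share in 4 groups) 4 passed it. For a single group chance gives about 1 in 20. The 44 groups are not independent, since the genes share samples and the summed share is made of them. The count was therefore not compared with chance. Peripherin (Prph) was at 1647 FPKM in day 14 sample 3, against 1231 to 1295 FPKM in the other 3. Uchl1 was at 2878 FPKM in the same sample, against 2074 to 2192 FPKM. Snap25 was at 428 FPKM in day 7 sample 3, against 594 to 606 FPKM. In that sample, which also had 6.09% of its FPKM in skeletal muscle genes, the 10 genes took 2.35% of the FPKM, against 3.37 to 3.57% in the others. The part of the muscle RNA in these values was not tested.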

How the results depend on the processing

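The number of members called lower on day 7 was 4, and became 8 with FPKM rescaled to 1 fixed sum or with array quality weights and 1 without a filter on low values (Snap25). On day 14 it was 4, and became 0 without a filter, with all 16 samples or with day 7 sample 3 added. The cause was not tested. In the 14 fits that left out 1 sample the counts ran from 4 to 6 on day 7 and from 3 to 5 on day 14, and the highest of both came without day 14 sample 3. No called difference changed its direction in 28 alternatives. The counts on day 1 and between days 7 and 14 stayed at 0. Calls over all genes went from 2512 to 4423 with quality weights and 4420 with centring on the neuronal reference on day 7, and from 2120 to 1389 with all 16 samples, 1273 with day 7 sample 3 added, 1128 with only the 2 groups compared, 1374 without sham sample 1 and 1364 without sham sample 2 on day 14. With a mean of at least 5 FPKM, which tests fewer genes, they were 1573 on day 7 and 1385 on day 14. Scaling moved the split of calls. The share of calls that were lower was 19.3% on day 7 and 21.2% on day 14, and became 63.4% and 58.4% with quantile normalization, 60.3% and 54.9% with centring on the median of all genes, 36.1% and 34.5% after rescaling to a fixed sum, and 1.90% and 4.20% with centring on the neuronal reference. The median of all genes on day 7 shifted by -0.11, -0.11, -0.05 and 0.11 under these 4. With quantile normalization Nefl was at -0.19 on day 7 and was not called (adjusted p = 0.0629, limma). Replicate numbers are shared between groups but belong to different rats. Same-numbered samples had correlations of their deviations between -0.0952 and 0.269 in 18 pairs, with 4 over 0.1, and 6 of 14 samples correlated best with their own number, so the numbers were not taken to pair the samples. With the replicate block 4 members were called on day 7 and 3 on day 14 (Snap25 adjusted p = 0.0767), and the block changed no other call of a member. Depth could not be weighed, since FPKM hold no totals.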
